A study of Mus musculus with 4 samples.

Results

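The regeneration-associated transcription factors described here are *Atf3*, *Jun*, *Sox11*, *Smad1*, *Klf4*, *Klf6*, *Klf7*, *Creb3*, *Arid5a*, and *Tgif1*. They were chosen as a fixed list of symbols and found by exact symbol in the gene lists of the count matrices, where all 10 of 10 were present among 31053 genes. They were followed in dorsal root ganglion (DRG) neurons of mice whose sciatic nerves were loosely tied (chronic constriction injury, CCI), which models neuropathic pain, and of mice with sham surgery. The data are 4 single-cell RNA-sequencing (scRNA-seq) libraries, 1 of each sex for each surgery, and every series of 4 values gives the sham libraries before the CCI libraries (Male-Sham and Female-Sham, then Male-CCI and Female-CCI). Each library pooled 20 lumbar DRGs of 5 mice taken 7 days after surgery on both sides.

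All mice, of both surgeries, were *Pirt* EGFPf mice on the C57BL/6 background and 7 to 8 weeks old. By the study's methods they were heterozygous for an allele in which a farnesylated green fluorescent protein takes the place of the *Pirt* reading frame, so that the endogenous *Pirt* promoter, which is active in most DRG neurons, marks the cells, and GFP+ cells were sorted before sequencing. Sham mice thus carried the same allele as CCI mice. A litter received a single kind of surgery, so litter and surgery cannot be told apart, and the mice of a library were not kept separate. The 2 libraries of a surgery, which differ in sex, served as its replicates, and no value covers the spread between animals.

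These factors belong to several families. *Atf3* and *Jun* are bZIP proteins that bind DNA as pairs at AP-1 and ATF/CREB sites, and *Creb3* is a membrane-bound bZIP protein that is released by cleavage. *Sox11* is a SoxC high-mobility-group factor of developing neurons, *Smad1* carries signals of bone morphogenetic protein receptors to the nucleus, *Tgif1* is a homeodomain repressor of SMAD and retinoid signalling, *Klf4*, *Klf6*, and *Klf7* are zinc-finger Kruppel-like factors, and *Arid5a* is an AT-rich interaction domain protein that also binds mRNA. *Atf3*, *Jun*, *Sox11*, *Smad1*, *Klf6*, and *Klf7* are known for supporting axon growth after nerve injury, whereas *Klf4* is known for restricting it in central neurons. *Sprr1a*, a small proline-rich protein that injured DRG neurons begin to make, is widely used to mark those neurons.

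Positions are those of the GENCODE annotation on GRCm38 (mm10), in which each of the 10 genes is protein coding. *Atf3* lies on chromosome 1 from 191170296 to 191218039 on the minus strand, *Klf7* on chromosome 1 from 64029447 to 64122282 on the minus strand, and *Arid5a* on chromosome 1 from 36307733 to 36324029 on the plus strand. *Jun* lies on chromosome 4 from 95049034 to 95052222 (minus), *Klf4* on chromosome 4 from 55527143 to 55532466 (minus), and *Creb3* on chromosome 4 from 43562332 to 43567060 (plus). *Sox11* is found on chromosome 12 from 27334264 to 27342574 (minus), *Smad1* on chromosome 8 from 79338395 to 79399518 (minus), *Klf6* on chromosome 13 from 5861482 to 5870394 (plus), and *Tgif1* on chromosome 17 from 70844205 to 70853546 (minus).

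*Atf3*, *Jun*, and *Creb3* encode proteins that can bind AP-1 or ATF/CREB sites, so the promoters were searched for these letters. Windows of 300 bases, from 250 before to 50 after each RefSeq start (GRCm38.p6), were searched on both strands for TGANTCA (AP-1), TGACNTCA (ATF/CREB), TTCNNNGAA (STAT), and GGGCGG (GC box). The ATF/CREB letters were present in 8.62% of 32544 distinct promoters, the AP-1 letters in 7.79%, the STAT letters in 8.33%, and the GC box in 35.9%. Of the 10 factors, *Jun*, *Sox11*, and *Klf6* had the ATF/CREB letters, 45, 42, and 119 bases before the start, and none had the AP-1 letters. In the promoter of *Sprr1a* the ATF/CREB letters stood 207 bases and the AP-1 letters 146 and 116 bases before the start, and these matches did not overlap. The 250 bases before the start are shown for these 4 genes because *Jun*, *Sox11*, and *Klf6* were called higher after CCI and *Sprr1a* marks the neurons compared. Capitals mark the matches to either motif.
*Jun* promoter, chr4:95052223-95052472, GRCm38.p6, minus strand: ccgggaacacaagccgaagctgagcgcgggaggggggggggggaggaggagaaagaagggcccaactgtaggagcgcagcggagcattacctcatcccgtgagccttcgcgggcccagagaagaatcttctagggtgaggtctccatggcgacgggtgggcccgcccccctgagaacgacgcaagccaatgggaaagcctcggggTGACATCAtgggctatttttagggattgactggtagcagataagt
*Sox11* promoter, chr12:27342719-27342968, GRCm38.p6, minus strand: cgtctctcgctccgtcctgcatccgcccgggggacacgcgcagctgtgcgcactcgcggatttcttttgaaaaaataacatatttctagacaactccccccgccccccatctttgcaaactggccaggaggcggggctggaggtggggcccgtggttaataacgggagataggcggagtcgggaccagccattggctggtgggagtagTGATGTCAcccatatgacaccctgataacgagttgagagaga
*Klf6* promoter, chr13:5861239-5861488, GRCm38.p6, plus strand: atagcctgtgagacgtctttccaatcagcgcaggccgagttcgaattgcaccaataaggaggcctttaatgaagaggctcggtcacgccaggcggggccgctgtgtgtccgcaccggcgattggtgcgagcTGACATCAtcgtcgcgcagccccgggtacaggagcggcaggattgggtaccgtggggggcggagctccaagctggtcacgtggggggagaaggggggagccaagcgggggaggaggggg
*Sprr1a* promoter, chr3:92485882-92486131, GRCm38.p6, minus strand: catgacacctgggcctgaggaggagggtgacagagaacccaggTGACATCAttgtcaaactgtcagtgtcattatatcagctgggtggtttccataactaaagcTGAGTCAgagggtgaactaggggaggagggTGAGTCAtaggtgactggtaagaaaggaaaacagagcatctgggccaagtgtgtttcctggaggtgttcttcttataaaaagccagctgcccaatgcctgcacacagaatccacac
The GC box was found in a window of each of the 10 factors but not in that of *Sprr1a*, and the STAT letters were found in 1 of 5 windows of *Tgif1* only, 183 bases before the start. A match describes the letters and is not a measured binding site.

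After removal of doublets and of cells with under 1500 genes or over 10% mitochondrial unique molecular identifiers (UMIs), 3281, 5398, 2817, and 3637 neurons remained, with a median of 45172, 32490, 56457, and 43527 UMIs. Clusters were named from marker genes, and such names carry "-like". Satellite glial cells (SGCs), 558 cells in all, and 24 immune cells were the other cells that passed the sort. A neuron was *Sprr1a*+ where its normalized value of *Sprr1a* (natural logarithm per 10000 UMIs) was above 1. This held for 42, 144, 1467, and 1789 neurons and left 3239, 5254, 1350, and 1848 *Sprr1a*- neurons. *Sprr1a*+ neurons were deeper, with medians of 65571.5, 45234, 60287, and 45680 UMIs against 45022, 32126.5, 51202.5, and 40010 UMIs in *Sprr1a*- neurons. Of the barcodes, 215 to 513 were shared by each pair of libraries, and 17 were kept in both libraries of a pair.

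Levels are in CPM, the UMIs of a gene scaled to a common total of UMIs for the cells summed. They are not divided by gene length, since 3′ UMIs do not scale with it, and levels of different genes were not ranked. Sums were compared by edgeR's quasi-likelihood test, and changes are log2 fold changes ± standard error (SE) from 2 against 2 libraries. A gene was called higher or lower at an adjusted p (Benjamini-Hochberg over all genes tested) under 0.05 with a change beyond 0.5 on the log2 scale. Comparisons with sham share the same sham libraries, so they are not independent of each other. A fit of CCI against sham without 1 library leaves a single library in that group. The difference between the libraries of that group then no longer enters, so a call gained in such a fit was not read as support.

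In the neurons as a whole, 7 of the 10 factors were called higher in CCI than in sham, namely *Atf3*, *Jun*, *Sox11*, *Smad1*, *Klf6*, *Arid5a*, and *Tgif1*. Each of the 10 had a change above 0, and DESeq2 called the same number. *Klf4*, *Klf7*, and *Creb3* passed on the adjusted p but not on the size of the change. Of 17232 genes tested, 15.2% were called higher and 12.7% lower. A sum over all neurons does not tell more mRNA per neuron apart from a larger share of neurons that hold it.

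Among the bZIP factors, *Atf3* lay at 131 and 161 CPM in sham and at 723 and 729 CPM in CCI. The CCI libraries stood close together and far above both sham libraries, a change of 2.37 ± 0.11 in log2 units (adjusted p = 2.6e-05). *Jun* lay at 287, 299, 505, and 481 CPM, so the groups again did not overlap but the change was smaller, 0.81 ± 0.055 (adjusted p = 5.86e-05). *Creb3* lay at 38.7, 40.1, 48.8, and 45.4 CPM, a change of 0.31 ± 0.051 (adjusted p = 0.00219) that stayed under the limit on size.

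*Sox11* rose from 46.1 and 58.1 CPM to 538 and 519 CPM. The change was 3.4 ± 0.12 (adjusted p = 1.77e-05), or 10.5-fold, which was the largest of the 10 factors except *Tgif1*. In the SMAD pathway, *Smad1* went from 63.0 and 67.8 CPM to 148 and 145 CPM, 1.22 ± 0.058 (adjusted p = 1.63e-05). *Tgif1*, which binds SMAD proteins and represses their targets, was almost absent in sham, at 0.512 and 1.22 CPM, and lay at 15.4 and 16.0 CPM in CCI. Its change of 4.21 ± 0.41 (adjusted p = 0.00352), or 18.5-fold, was the largest of the list, with the widest error.

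Of the Kruppel-like factors, *Klf6* alone was called. It lay at 112, 123, 217, and 219 CPM, a change of 0.95 ± 0.063 (adjusted p = 5.24e-05). *Klf7*, at 692, 688, 892, and 896 CPM, changed by 0.43 ± 0.043 (adjusted p = 0.00028), and *Klf4*, at 10.1, 11.2, 15.1, and 12.97 CPM, by 0.46 ± 0.095 (adjusted p = 0.0067). Both had CCI libraries above both sham libraries, with changes short of the limit. *Arid5a* rose from 9.12 and 10.1 CPM to 21.1 and 22.6 CPM, 1.24 ± 0.076 (adjusted p = 3.78e-05). With CCI-ind-like neurons (the clusters named from injury-induced genes) left out, *Jun* changed by 0.40 and *Klf6* by 0.26 and neither was called, while the other 5 were still called. *Klf4* was called higher without Female-Sham (0.53), without Female-CCI (0.57), and without neurons holding a UMI of the SGC gene *Fabp7* (0.61).

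**Figure D1:**
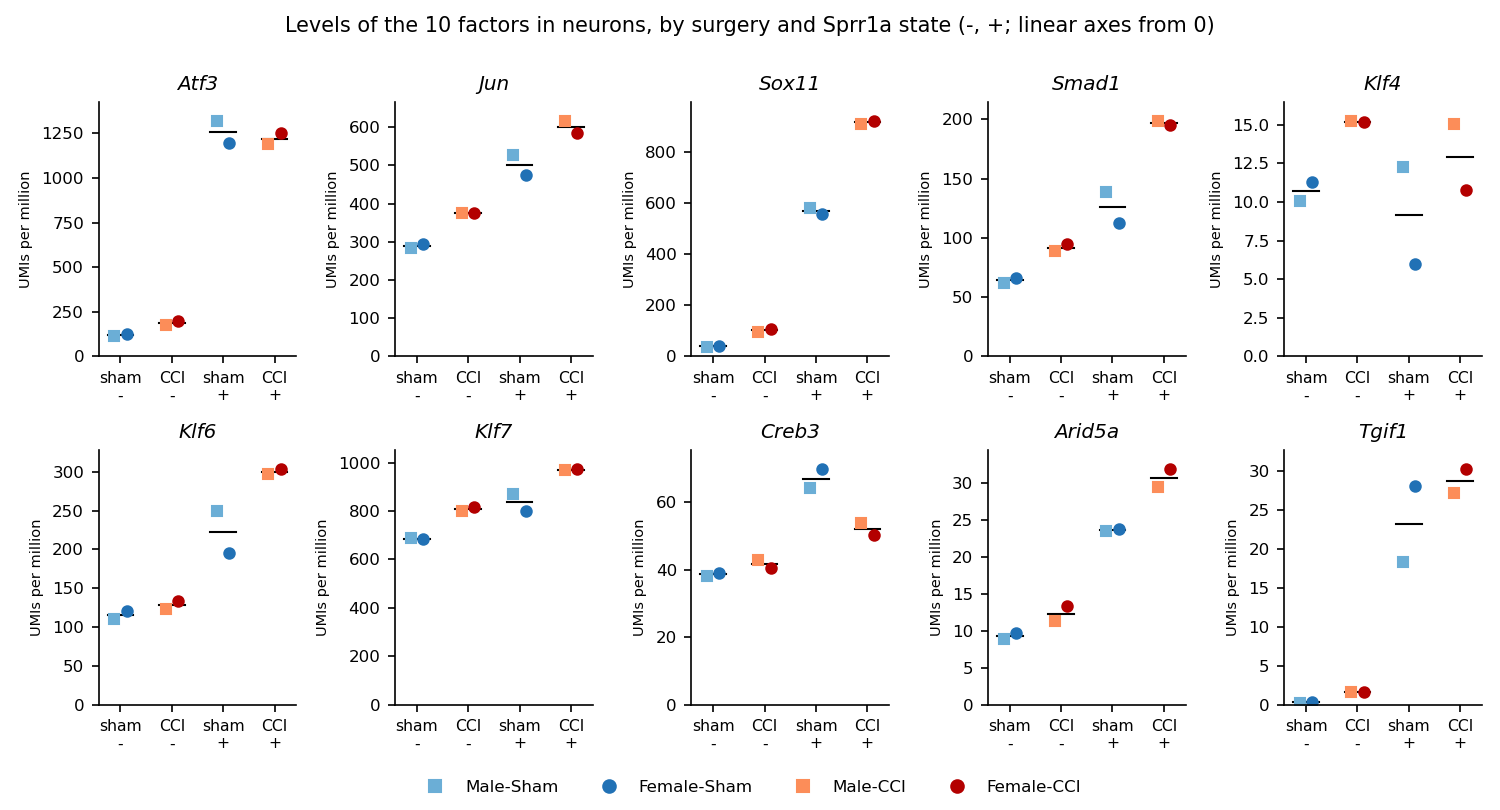
Level of each factor in CPM in *Sprr1a*- and *Sprr1a*+ neurons of each library, with 1 point per library and no error bars. For *Atf3*, *Sox11*, and *Tgif1* the *Sprr1a*+ points of both surgeries stand together above the *Sprr1a*- points, with *Sox11* at 557 to 923 CPM against 37.6 to 108 CPM.

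Within the CCI libraries, injured and spared neurons of the same ganglia were compared by the *Sprr1a* limit. *Atf3*, *Jun*, *Sox11*, *Smad1*, *Klf6*, *Arid5a*, and *Tgif1*, 7 of the 10 factors, were called higher in *Sprr1a*+ neurons, with 20.9% of 16240 genes called higher and 24.7% lower. *Klf7* and *Creb3* passed on the adjusted p alone, and *Klf4* did not pass. Neurons of both kinds came from the same 2 libraries, which entered the fit as a block.

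*Atf3* lay at 175 and 200 CPM in *Sprr1a*- neurons of Male-CCI and Female-CCI and at 1189 and 1249.8 CPM in *Sprr1a*+ neurons (2.88 ± 0.035, adjusted p = 4.17e-11). *Jun* went from 375 and 375 CPM to 616 and 584 CPM (0.85 ± 0.029, adjusted p = 1.35e-09). *Sox11* went from 95.8 and 108 CPM to 912 and 923 CPM (3.35 ± 0.044, adjusted p = 1.53e-09). The 2 factors with a large change thus differed by 7.36-fold and 10.2-fold between neurons of the same ganglia, and *Jun* by 1.80-fold. *Tgif1* lay at 1.61 and 1.58 CPM in *Sprr1a*- and at 27.1 and 30.2 CPM in *Sprr1a*+ neurons (4.34 ± 0.075, adjusted p = 1.23e-11). *Smad1* went from 88.8 and 94.8 CPM to 199 and 195 CPM (1.27 ± 0.037, adjusted p = 1.17e-09), *Klf6* from 124 and 133 CPM to 297 and 303 CPM (1.40 ± 0.032, adjusted p = 7.09e-11), and *Arid5a* from 11.3 and 13.3 CPM to 29.4 and 31.8 CPM (1.49 ± 0.052, adjusted p = 1.38e-09). For each of these 7 factors both libraries moved alike, with SEs far smaller than the change.

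*Klf7* went from 799 and 817 CPM to 970.4 and 974 CPM (0.44 ± 0.024), and *Creb3* from 42.9 and 40.5 CPM to 53.8 and 50.2 CPM (0.49 ± 0.036, adjusted p = 4.8e-07). *Klf4*, a factor known for limiting axon growth, lay at 15.2 and 15.2 CPM in *Sprr1a*- and at 15.0 and 10.8 CPM in *Sprr1a*+ neurons (-0.07 ± 0.14, adjusted p = 0.666). The *Klf4* result depended on which *Sprr1a*+ neurons entered. Without CCI-ind-like neurons its level was 14.5 and 15.0 CPM in *Sprr1a*- and at 5.36 and 4.43 CPM in *Sprr1a*+ neurons, a change of -1.35 ± 0.13 (adjusted p = 7.52e-05), and was called lower. *Creb3* was then called higher (0.59), and *Jun* remained called (0.51). These values set different classes side by side, since the *Sprr1a*+ neurons left were mainly NP1-like (98 in Male-CCI and 113 in Female-CCI), NF1-like (55 and 32), and NF2-like (80 and 80), classes with little *Klf4* in sham. Against *Sprr1a*- sham neurons of their own class, *Klf4* was called higher in the NP1-like (2.65) and NF2-like (2.23) *Sprr1a*+ neurons. It was not called in the NF1-like ones (0.26), and the NF2-like call was lost without Male-Sham. Counts of *Klf4* in sham were low in each of these classes.

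*Sprr1a*- neurons of CCI were compared with *Sprr1a*- neurons of sham to see the factors in neurons without the injury mark. Here 3 of 10 factors were called higher, *Atf3*, *Sox11*, and *Tgif1*, and each of the 10 had a change above 0, with 3.23% of 16406 genes called higher and 1.24% lower. The changes of these 3 were smaller in value than those between *Sprr1a*+ and *Sprr1a*- neurons, and the difference was not tested. *Sox11* lay at 37.6, 41.7, 95.8, and 108 CPM (1.34 ± 0.079, adjusted p = 0.00192), *Atf3* at 113, 127, 175, and 200 CPM (0.62 ± 0.089, adjusted p = 0.00955), and *Tgif1* at 0.232, 0.343, 1.61, and 1.58 CPM (2.43 ± 0.23, adjusted p = 0.00373). In each the CCI libraries stood above both sham libraries.

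*Jun* (283, 294, 375, and 375 CPM, 0.36, adjusted p = 0.00752), *Smad1* (61.8, 66.4, 88.8, and 94.8 CPM, 0.50 ± 0.058, adjusted p = 0.00565), *Klf4* (0.48, adjusted p = 0.0105), *Klf7* (0.21, adjusted p = 0.0217), and *Arid5a* (0.38, adjusted p = 0.0365) passed on the adjusted p with changes under the limit. *Klf6* lay at 110.03, 121, 124, and 133 CPM (0.13 ± 0.069, adjusted p = 0.231) and *Creb3* changed by 0.09 (adjusted p = 0.225). *Smad1* sat at the limit on size and was called without Female-Sham (0.55) or without Male-CCI (0.54), and *Klf4* was called without Female-Sham (0.58).

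The call of *Atf3* was lost without CCI-ind-like neurons, where it lay at 110, 125, 130, and 153 CPM (0.24, adjusted p = 0.167), whereas *Sox11* (0.94, adjusted p = 0.00652) and *Tgif1* (0.207, 0.273, 0.636, and 0.814 CPM, 1.56) were still called. When every neuron with any *Sprr1a* UMI was counted as *Sprr1a*+, *Atf3* was not called (0.42), and *Jun* (0.55) and *Smad1* (0.62) were.

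*Sprr1a* mRNA itself was higher in *Sprr1a*- neurons of CCI, at 0.470, 1.24, 23.1, and 27.0 CPM, and its source was not tested. The limit on *Sprr1a* caps its level in these neurons, and how many of them were injured was not tested.

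A small number of sham neurons were *Sprr1a*+, 42 in Male-Sham and 144 in Female-Sham, and these were compared with the *Sprr1a*+ neurons of CCI in a comparison added after their levels had been seen. Of the 10 factors, 2 were called higher in CCI, *Sox11* and *Smad1*, with 6.36% of 14767 genes called higher and 3.09% lower. *Sox11* lay at 582, 557, 912, and 923 CPM (0.68 ± 0.072, adjusted p = 2.26e-05) and *Smad1* at 139, 113, 199, and 195 CPM (0.65 ± 0.091, adjusted p = 0.000219). Both were high in the *Sprr1a*+ neurons of sham and higher still in those of CCI. The classes differed, as sham held 0 NF1-like and 0 NF2-like *Sprr1a*+ neurons. Male-CCI and Female-CCI held 55 and 32 NF1-like and 80 and 80 NF2-like ones. The part of this mix in the changes was not tested.

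*Atf3* lay at 1319, 1196, 1189, and 1249.8 CPM (-0.05 ± 0.073, adjusted p = 0.675), so that the groups overlapped. *Tgif1* also overlapped, at 18.2, 28.1, 27.1, and 30.2 CPM (0.19 ± 0.15, adjusted p = 0.417). *Creb3* went the other way, at 64.2, 69.8, 53.8, and 50.2 CPM (-0.40 ± 0.083, adjusted p = 0.00457), with both CCI libraries under both sham libraries but the change under the limit on size. *Jun* (0.25), *Klf6* (0.43), and *Arid5a* (0.36) passed on the adjusted p alone, and *Klf4* (12.3, 5.98, 15.0, and 10.8 CPM) and *Klf7* (873, 802, 970.4, and 974 CPM) did not pass. *Klf6* was also called without Male-Sham (0.58), and *Klf4* without Female-CCI (0.88). With neurons of any *Sprr1a* UMI taken as *Sprr1a*+, both groups also held neurons under the limit, so the comparison was a different one. There 8 factors were called and *Atf3* changed by 0.62. That count is given without the share of all genes and was not read as a result about the factors.

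Levels differed between classes of sham neurons, which were taken 7 days after sham surgery. No library came from mice without surgery. In *Sprr1a*- neurons of sham, *Atf3*, *Jun*, and *Klf6* were highest in PEP3/4-like neurons, peptidergic nociceptors with *Sstr2*, at 289.6 and 307 CPM, 853 and 779 CPM, and 318 and 311 CPM. For each of these 3 factors the lower PEP3/4-like library stood above both libraries of every other class. Next came PEP2-like neurons, with *Atf3* at 192 and 190.3 CPM, *Jun* at 518 and 451 CPM, and *Klf6* at 178 and 191 CPM. At the low end, cLTMR-like neurons, low-threshold mechanoreceptors with *Th*, held 19.7 and 19.7 CPM of *Atf3* and 19.3 and 40.7 CPM of *Jun*, and NP2-like neurons, with *Mrgprd*, held 17.1 and 19.9 CPM of *Klf6*.

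Immediate early genes followed a like order in the classes given here, whereas SGC markers were higher in PEP5-like than in PEP3/4-like neurons. The summed level of 13 immediate early genes, which respond to activity and dissociation, was 1482 and 1689 CPM in PEP3/4-like, 1208 and 1247 CPM in PEP2-like, 194 and 206 CPM in NF1-like, and 174 and 242 CPM in cLTMR-like *Sprr1a*- neurons of sham. The 7 SGC markers summed to 2666 and 2973 CPM in PEP3/4-like, 3736 and 4185 CPM in PEP5-like, and, among NF1-like neurons, 119 and 231 CPM. The SGC-like cells of the 4 libraries had *Jun* at 1949, 2282, 1893, and 2523 CPM and *Klf6* at 238, 374, 277, and 412 CPM. The part of these in the order of the classes was not tested.

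*Sox11* was highest among the named classes in PEP3/4-like (63.5 and 68.2 CPM) and PEP2-like neurons (61.1 and 62.6 CPM) and lowest in NF2-like neurons (7.52 and 9.03 CPM). In NP1-like neurons, with *Nppb* and *Sst*, its sham libraries differed widely, 1.04 CPM in Male-Sham and 35.4 CPM in Female-Sham. *Atf3* also differed there, at 88.0 and 227 CPM. *Smad1* ranged from 37.7 and 38.4 CPM in NP3-like to 102 and 108 CPM in PEP3/4-like neurons. *Klf7* ranged from 359 and 387 CPM in NF1-like to 866 and 832 CPM in PEP1-like neurons, and cLTMR-like neurons, lowest in *Jun*, lay near the top for *Klf7*, at 839 and 764 CPM.

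*Klf4* was highest in PEP1-like neurons (33.8 and 27.2 CPM), then PEP2-like neurons (17.6 and 21.9 CPM), and lay between 0.519 and 4.44 CPM in the NP1-, NP2-, NP3-, NF1-, NF2-, and cLTMR-like classes. *Arid5a* and *Creb3* were highest in cLTMR-like neurons, with *Arid5a* at 26.6 and 24.99 CPM against 12.03 and 13.6 CPM in PEP3/4-like neurons, the next class, and *Creb3* at 54.0 and 53.8 CPM against 41.8 and 42.6 CPM in NP1-like neurons. *Tgif1* did not pass 1.07 CPM in any class of *Sprr1a*- sham neurons, and NF2-like neurons held 0 of its UMIs among 11058715.

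**Figure D2:**
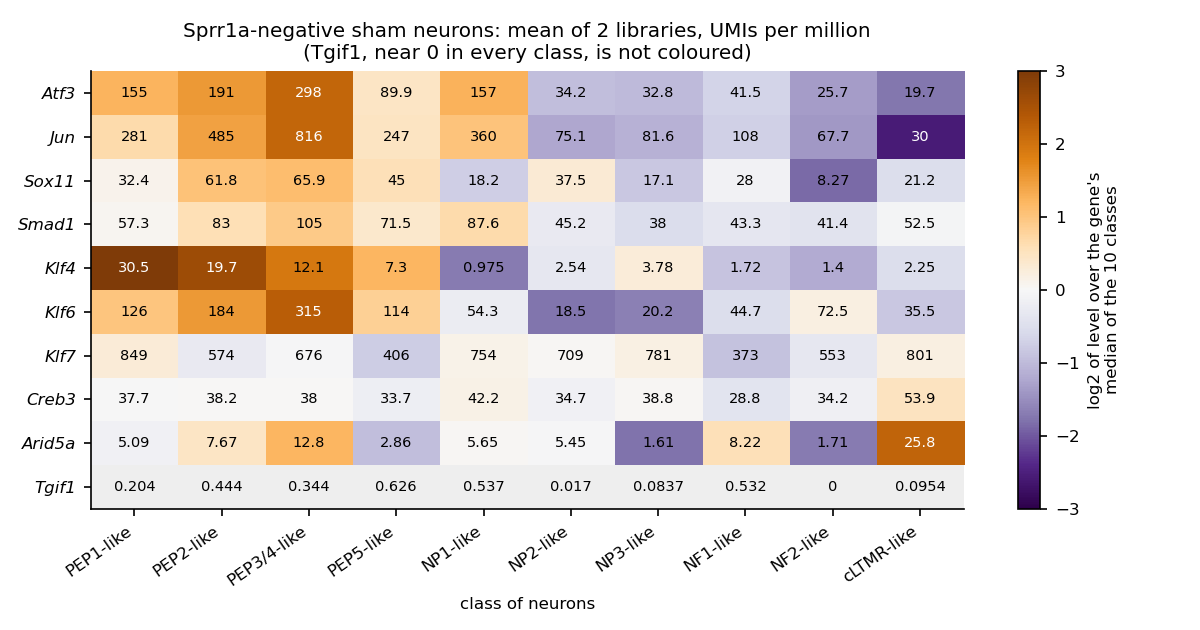
Level of each factor in *Sprr1a*- neurons of sham by class, as the mean CPM of the sham libraries, with colour scaled within a factor. PEP3/4-like neurons are highest for *Atf3*, *Jun*, and *Klf6*, PEP1-like neurons for *Klf4* and *Klf7*, and cLTMR-like neurons for *Creb3* and *Arid5a*. *Tgif1* is left uncoloured because its levels do not pass 1.07 CPM.

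Within classes, *Sprr1a*- neurons of CCI and sham were compared in 10 classes, and 90 tests of a factor in a class could be made. Of these, 22 were called higher by edgeR and none lower. DESeq2 called 19 higher and none lower, and 3 tests had an unadjusted p under 0.05 in the lower direction. Over all genes the share called higher was 2.33% in NP1-, 2.59% in NP2-, 1.47% in NP3-, 2.62% in PEP1-, 2.5% in PEP2-, 2.27% in PEP3/4-, 1.94% in PEP5-, 0.626% in NF1-, 1.3% in NF2-, and 0.877% in cLTMR-like neurons. *Sox11* made up 7 of the calls, *Jun* 5, and *Atf3*, *Smad1*, and *Arid5a* 3 each. *Tgif1* was tested in 1 class, NF2-like neurons, and called there by edgeR, while DESeq2 gave it no adjusted p. Sham held 0 of its UMIs in that class, so it passed the filter on low counts through the CCI libraries alone. That call is therefore not independent of the filter. *Klf4*, *Klf6*, *Klf7*, and *Creb3* were called in no class by edgeR, DESeq2 called *Klf4* in 1, and an unadjusted p under 0.05 in the higher direction was found in 3, 1, 8, and 2 classes. *Klf7* had an adjusted p under 0.05 with a small change in PEP1-like (0.24), PEP2-like (0.29), PEP3/4-like (0.23), and PEP5-like neurons (0.30).

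*Sox11* was the factor called in the most classes. It lay at 36.6, 38.4, 63.7, and 59.5 CPM in NP2-like neurons (0.69 ± 0.067, adjusted p = 3.01e-06), at 17.1, 17.1, 39.7, and 42.6 CPM in NP3-like neurons (1.21 ± 0.12, adjusted p = 6.01e-06), and at 32.1, 32.8, 64.4, and 74.9 CPM in PEP1-like neurons (1.12 ± 0.073, adjusted p = 2.35e-05). It was also called in PEP2-like (61.1, 62.6, 94.6, and 93.9 CPM, 0.61), PEP3/4-like (63.5, 68.2, 98.4, and 106 CPM, 0.62), PEP5-like (45.6, 44.5, 96.0, and 91.3 CPM, 1.03), and cLTMR-like neurons (21.3, 21.2, 39.2, and 33.9 CPM, 0.72). In each of these 7 classes the lower CCI library stood above the higher sham library.

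The other 3 classes gave no call for *Sox11*. In NP1-like neurons it lay at 1.04, 35.4, 133, and 198 CPM (3.31, adjusted p = 0.436). The sham libraries differed from each other there, and the change was 2.19 without Male-Sham and 7.25 without Female-Sham. In NF2-like neurons it lay at 7.52, 9.03, 42.2, and 128 CPM (3.44, adjusted p = 0.297). The change there was 4.02 without Male-CCI and 2.39 without Female-CCI. NF1-like neurons held 22.6, 33.5, 44.1, and 36.6 CPM (0.59, adjusted p = 0.169), with a change of 0.89 without Female-Sham.

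*Atf3* rose in PEP5-like neurons, with *Trpm8*, from 87.7 and 92.1 CPM to 151 and 147 CPM (0.70 ± 0.080, adjusted p = 1.36e-05). It was called as well in NF1-like neurons (47.2, 35.8, 74.9, and 92.1 CPM, 1.03) and cLTMR-like neurons (19.7, 19.7, 33.2, and 29.0 CPM, 0.60), but not in NF1-like neurons without Female-CCI (0.87) nor in cLTMR-like neurons without Male-CCI (0.50). Its largest values in *Sprr1a*- neurons of CCI were in NP1-like neurons, at 88.0, 227, 410.3, and 610.1 CPM (1.70 ± 0.73, adjusted p = 0.426). The sham libraries differed there, and the change was 1.13 without Male-Sham and 2.53 without Female-Sham. It was -0.53 when neurons with any *Sprr1a* UMI were set aside. NF2-like neurons held 21.4, 29.97, 47.8, and 252 CPM (2.63 ± 1.23, adjusted p = 0.466), with CCI libraries far apart. The change of *Atf3* there was 3.37 without Male-CCI and 0.94 without Female-CCI. In the PEP2-like and PEP3/4-like classes, which had high *Atf3* in sham, it was not called. It lay at 192, 190.3, 173, and 153 CPM in PEP2-like neurons (-0.23, adjusted p = 0.0546) and at 289.6, 307, 292, and 268 CPM in PEP3/4-like neurons (-0.11, adjusted p = 0.339). The immediate early sum went from 1208 and 1247 CPM to 965 and 967 CPM in PEP2-like and from 1482 and 1689 CPM to 1446 and 1325 CPM in PEP3/4-like neurons, and the SGC sum from 3604 and 2746 CPM to 2005 and 1730 CPM and from 2666 and 2973 CPM to 2082 and 2275 CPM. Their part in the *Atf3* values was not tested.

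*Jun* was called in NP2-like (68.9, 81.3, 122, and 118 CPM, 0.65), NP3-like (76.7, 86.5, 120.0, and 129 CPM, 0.56), PEP5-like (245, 249.5, 412, and 416 CPM, 0.71), NF1-like (118, 97.5, 197, and 158 CPM, 0.76), and NF2-like neurons (60.1, 75.3, 114, and 119 CPM, 0.84). It was not called in PEP2-like (0.04) or PEP3/4-like neurons (0.08), the classes with the highest *Jun* in sham. The NP3-like call was lost without Male-Sham (0.47) or Female-CCI (0.48), and the NF1-like call without Male-CCI (0.59). In cLTMR-like neurons *Jun* lay at 19.3, 40.7, 54.4, and 42.7 CPM (0.60, adjusted p = 0.677), with a change of 1.29 without Female-Sham.

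*Smad1* was called in NP1-like (92.9, 82.3, 134, and 173 CPM, 0.80), PEP5-like (67.1, 75.9, 109.6, and 117 CPM, 0.63), and NF2-like neurons (40.0, 42.8, 65.8, and 84.0 CPM, 0.91), and *Arid5a* in PEP1-like (5.09, 5.10, 8.16, and 9.46 CPM, 0.81), PEP2-like (7.48, 7.86, 12.2, and 13.6 CPM, 0.74), and NF2-like neurons (1.88, 1.54, 4.95, and 9.33 CPM, 2.12). The *Arid5a* calls in PEP2-like and NF2-like neurons were lost without Female-CCI (0.65 and 1.55). *Arid5a* was not called in cLTMR-like neurons, where it was highest (26.6, 24.99, 26.8, and 25.5 CPM, -0.03). *Tgif1* in NF2-like neurons lay at 0, 0, 3.49, and 4.90 CPM, at least 15.5-fold higher against a floor of 3 UMIs over both sham libraries.

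In NP1-, NF1-, and NF2-like classes each CCI library also held at least 10 *Sprr1a*+ neurons outside the CCI-ind-like clusters, between 32 and 113 per library, and these were compared with *Sprr1a*- neurons of sham. Of 30 tests, 25 were called higher, and each of the 30 changes was above 0, with 21.1% of genes called higher in NP1-, 21.7% in NF1-, and 21.1% in NF2-like neurons. *Jun*, *Smad1*, *Klf6*, *Arid5a*, and *Tgif1* were called in all 3 classes. These neurons were still clustered with their class, by a clustering built from all genes, the factors among them. Most *Sprr1a*+ neurons of CCI were CCI-ind-like instead, 1229 of 1467 in Male-CCI and 1530 of 1789 in Female-CCI. The changes within a class therefore describe only the part of its *Sprr1a*+ neurons that stayed in it.

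NF2-like neurons had the least *Atf3* and *Jun* of the 3 classes in sham and the largest fitted changes of *Atf3*, *Jun*, and *Sox11*, although for *Sox11* the difference between classes did not pass the test (adjusted p = 0.166). *Atf3* went from 21.4 and 29.97 CPM to 937 and 1050 CPM (5.51 ± 0.15, adjusted p = 4.44e-09), *Jun* from 60.1 and 75.3 CPM to 403 and 364 CPM (2.74 ± 0.13, adjusted p = 1.2e-07), and *Sox11* from 7.52 and 9.03 CPM to 546 and 639.6 CPM (6.39 ± 0.13, adjusted p = 6.94e-10). *Arid5a* went from 1.88 and 1.54 CPM to 17.4 and 23.0 CPM (3.75 ± 0.27), and *Tgif1*, at 0 and 0 CPM in sham, lay at 20.5 and 22.6 CPM, at least 79.5-fold higher. In this class *Tgif1* passed the filter on low counts through the CCI libraries alone. All 10 factors were called in this class, including *Klf4* (0.683, 2.11, 6.88, and 3.70 CPM, 2.23), which was lost without Male-Sham (1.59).

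NF1-like neurons gave 9 calls, all but *Klf4* (1.00, 2.43, 2.00, and 0.588 CPM, 0.26, adjusted p = 0.766). *Atf3* lay at 47.2, 35.8, 759.8, and 843 CPM (4.58 ± 0.13), *Sox11* at 22.6, 33.5, 300.9, and 341 CPM (3.85 ± 0.17), and *Jun* at 118, 97.5, 455, and 401 CPM (2.32 ± 0.11). *Klf7* (359, 387, 703, and 709.9 CPM, 1.24) and *Creb3* (29.8, 27.8, 64.8, and 50.5 CPM, 1.37), which changed little over all neurons, were called in NF1- and NF2-like neurons. In NP1-like neurons 6 factors were called. *Jun* rose by 0.53 ± 0.092 from 368 and 352 CPM to 525 and 478 CPM, a call that was lost without Male-CCI (0.48), and *Klf6* by 2.12 ± 0.11 from 56.3 and 52.2 CPM to 224 and 229 CPM. *Atf3* (88.0, 227, 1239, and 1288 CPM, 3.08 ± 0.67, adjusted p = 0.069) and *Sox11* (1.04, 35.4, 713, and 739 CPM, 5.53 ± 1.27, adjusted p = 0.0755) did not pass although the groups lay far apart. Their changes were 2.51 and 4.39 without Male-Sham and 3.91 and 9.49 without Female-Sham, fits in which the difference between the sham libraries no longer entered. *Klf4* was called at 0.519, 1.43, 5.73, and 5.403 CPM (2.65 ± 0.52).

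PEP5-like neurons of Male-CCI and Female-CCI had 4 and 11 *Sprr1a*+ cells, too few for this comparison, and had enough at a coarser clustering (resolution 0.4), with injury genes and the factors left out of the clustering, or with doublets kept. All 10 factors were called higher under each of the 3, and 4 when any *Sprr1a* UMI made a neuron *Sprr1a*+. The share of all genes is given for resolution 0.4 only, so the other counts were not read as a result about the factors. At resolution 0.4, where 22.4% of genes were called higher, *Atf3* lay at 90.3, 93.7, 1302, and 1282 CPM (4.11), *Sox11* at 45.9, 46.6, 853, and 854 CPM (4.50), and *Jun* at 246, 254, 758, and 704 CPM (1.84). The smallest of these changes was that of *Klf4* (0.62). At resolution 0.4 Male-CCI and Female-CCI held 309 and 357 PEP5-like neurons, against 160 and 203 at resolution 0.8. Their CCI-ind-like neurons were 1121 and 1450, against 1270 and 1604. The PEP5-like neurons gained were thus CCI-ind-like at resolution 0.8. The calls at resolution 0.4 therefore largely describe CCI-ind-like neurons, whose clusters were built from genes with the factors among them.

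**Figure D3:**
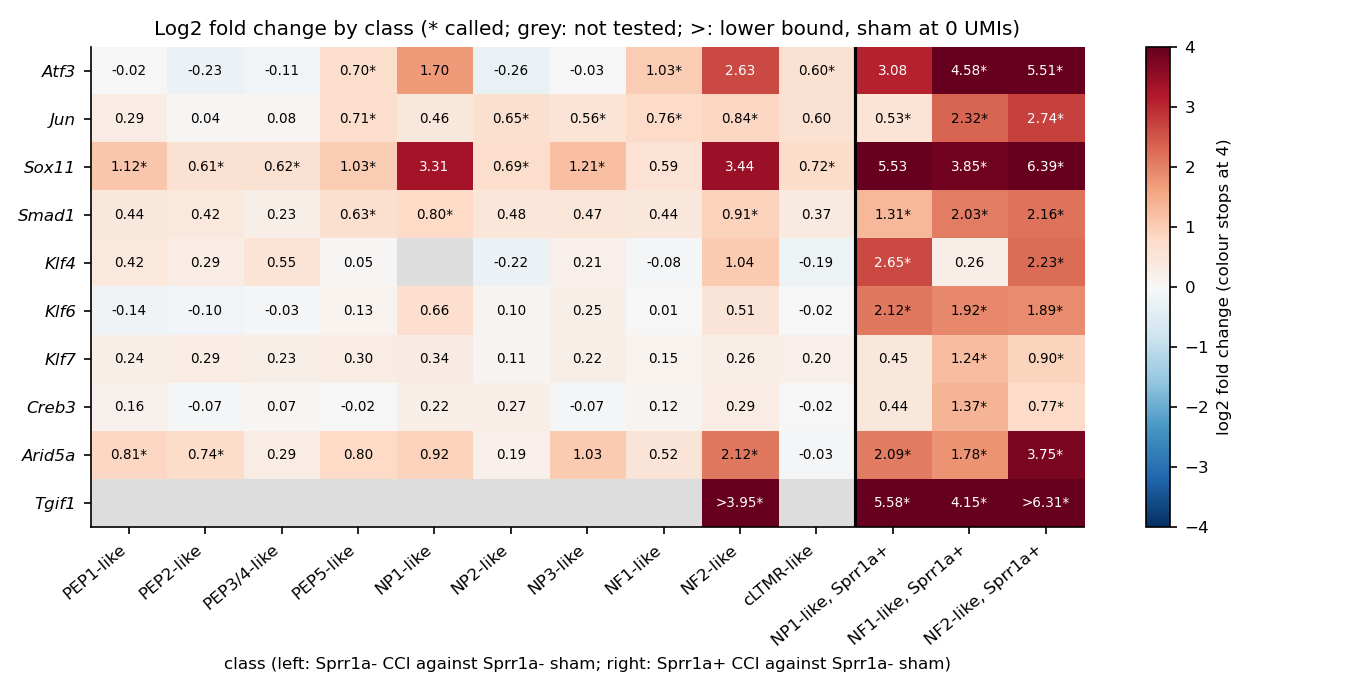
Log2 fold change of each factor in each class for *Sprr1a*- neurons (CCI against sham) and, on the other side, for the *Sprr1a*+ neurons of CCI compared with sham neurons lacking *Sprr1a*, with an asterisk on each called value, grey where a gene was not tested, and ">" where sham had 0 UMIs and the value is a lower bound. Called values make up 22 of 90 tests on the *Sprr1a*- side and 25 of 30 on the *Sprr1a*+ side, where *Sox11* in NF2-like neurons stands at 6.39.

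The size of the change was compared between classes by the class-by-surgery interaction, with p adjusted over all genes, and the sums of 1 library in several classes share that library. For *Sprr1a*+ neurons of the NP1-, NF1-, and NF2-like classes, 7 factors passed at an adjusted p under 0.05, against 38.8% of genes. *Jun* gave the smallest value (adjusted p = 1.04e-07), with changes of 0.53, 2.32, and 2.74 in that order of classes. *Klf7* (0.45, 1.24, and 0.90, adjusted p = 7.66e-05), *Smad1* (1.31, 2.03, and 2.16, adjusted p = 0.000273), *Arid5a* (2.09, 1.78, and 3.75, adjusted p = 0.00267), *Creb3* (0.44, 1.37, and 0.77, adjusted p = 0.0039), and *Tgif1* (adjusted p = 0.0104) followed. *Atf3* passed narrowly (adjusted p = 0.0487, or 0.0879 with library as a block), and *Sox11* (0.166), *Klf6* (0.296), and *Klf4* (0.0912, or 0.0215 with the block) did not pass by that adjusted p. In *Sprr1a*- neurons of 10 classes, *Arid5a* (adjusted p = 0.0147) and *Tgif1* (adjusted p = 0.0403) passed, against 4.08% of genes, and *Sox11* lay at an adjusted p of 0.0508. Of these classes only the NF2-like had enough *Tgif1* to be tested by itself, with 0 UMIs in sham. The result for *Tgif1* thus rests on low counts. With library as a block, under which 12.1% of genes passed, *Smad1* (adjusted p = 0.0178), *Sox11* (adjusted p = 0.0223), and *Atf3* (adjusted p = 0.0324) passed too.

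CCI-ind-like neurons held 3057 cells, 44, 139, 1270, and 1604 per library, in 5 clusters. The clusters were built from all genes, the factors among them, so their levels are described without a test. *Atf3* lay between 1250 and 1424 CPM in Male-CCI and Female-CCI in 4 of the clusters and at 894 and 919 CPM in the cluster led by *Ly6a*, *Phox2a*, and *Gal*. That cluster had the most *Klf6* (495 and 485 CPM) and *Sox11* (1102 and 1149 CPM). *Tgif1* was among the leading genes of the cluster with *Wfdc3* and *Flnc*, at 48.0 and 51.1 CPM, and was lowest in the cluster with *Ankrd1* and *Slc6a4*, at 10.3 and 11.99 CPM.

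*Klf4* was high in the *Wfdc3* cluster (33.3 and 19.9 CPM) and the *Ly6a* cluster (33.4 and 18.9 CPM) and lay between 7.08 and 12.96 CPM in the other 3. *Klf7* lay at 594 and 600 CPM in the *Ankrd1* cluster and at 989 to 1107 CPM in the other 4. *Creb3* (73.9 and 65.8 CPM) and *Arid5a* (46.5 and 45.7 CPM) were highest in the cluster with *Crh* and *Tmem144*, which shared its high *Jun* (763 and 767 CPM) with the *Ankrd1* cluster (763 and 721 CPM). The values of *Sox11* lay between 859 and 1149 CPM in all 5 clusters.

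To compare shares of neurons at equal depth, each neuron was thinned to 10000 UMIs, which left out 206, 302, 117, and 228 shallower neurons. *Atf3* was then found in 40.9%, 46.3%, 75.5%, and 76.5% of neurons and *Sox11* in 31.8%, 34.5%, 75.0%, and 74.8%. Without thinning the shares were 59.4%, 63.4%, 87.5%, and 88.1% for *Atf3* and 68.9%, 63.9%, 93.0%, and 90.1% for *Sox11*. The exact binomial (Clopper-Pearson) 95% interval of the thinned *Atf3* share ran from 39.2% to 42.7% in Male-Sham and from 75.0% to 77.9% in Female-CCI, and intervals cover counting error only. *Jun* (67.0%, 71.4%, 89.3%, and 88.8%), *Smad1* (48.8%, 50.1%, 72.3%, and 72.5%), *Klf6* (57.2%, 60.6%, 75.8%, and 77.9%), and *Arid5a* (8.46%, 9.69%, 17.8%, and 18.7%) were found more often in both CCI libraries, as was *Tgif1* (0.455%, 0.962%, 12.5%, and 12.2%). *Klf7* was found in 99.3% to 99.9% of neurons of every library.

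Of *Sprr1a*+ neurons, *Atf3* was found in 100%, 99.3%, 99.9%, and 99.9% and *Sox11* in 95.2%, 97.8%, 99.4%, and 99.5%, so nearly every such neuron of either surgery held both. In *Sprr1a*- neurons the shares were 40.1%, 44.8%, 49.2%, and 53.8% for *Atf3* and 30.9%, 32.8%, 48.7%, and 50.8% for *Sox11*. *Tgif1* was found in 11.9%, 20.9%, 23.0%, and 23.3% of *Sprr1a*+ and in 0.297%, 0.403%, 1.23%, and 1.45% of *Sprr1a*- neurons.

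SGC-like cells, whose medians were 5125, 4188, 5160, and 4416 UMIs against 45172, 32490, 56457, and 43527 in neurons, served as the background for free RNA, with all cells thinned to 2000 UMIs. *Sox11* was found in 0 of 186 and 0 of 145 SGC-like cells of sham, which allows shares of up to 1.61% and 2.07%, in 3.39% and 1.83% of those of CCI, and in 9.94%, 10.1%, 49.3%, and 47.4% of neurons, so its neuronal shares stood well above the background. *Smad1* and *Klf7* did so too, with *Smad1* at 4.30%, 2.07%, 0.847%, and 3.67% of SGC-like cells against 13.4%, 13.9%, 25.6%, and 25.3% of neurons. *Jun* (81.2%, 85.5%, 79.7%, and 86.2%), *Klf6* (33.9%, 44.8%, 41.5%, and 46.8%), and *Klf4* (9.14%, 10.3%, 10.2%, and 17.4%) were found more often in SGC-like cells than in neurons, where the shares were 38.2% to 59.7%, 21.1% to 35.7%, and 1.98% to 3.35%. SGC-like cells also had a higher CPM of these 3 genes than neurons, so their shares cannot serve as a background of free RNA for them. The comparison therefore does not tell free RNA from neuronal mRNA for these 3 genes, and their neuronal shares at this depth were not read as expression. At 2000 UMIs *Creb3* (7.07% to 9.30% of neurons and 5.08% to 9.17% of SGC-like cells) and *Arid5a* (1.74% to 4.59% and 0.690% to 5.505%) could not be told from the background, nor could *Tgif1* (0.152% to 3.19% and 1.38% to 6.42%). *Atf3* stood at 6.99%, 22.8%, 9.32%, and 33.9% of SGC-like cells against 19.1%, 22.1%, 55.6%, and 55.4% of neurons.

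Single neurons held UMIs of several factors at once. These counts include the factors that could not be told from background at 2000 UMIs, and the 16 SGC-like cells of Male-Sham that reached 10000 UMIs held a mean of 4, so the numbers were not read as numbers of factors expressed. At 10000 UMIs, *Sprr1a*- neurons held a mean of 3.90, 4.07, 4.50, and 4.67 of the 10 factors and *Sprr1a*+ neurons 6.40, 6.35, 6.72, and 6.71. The SD among neurons was 1.58 to 1.63 in *Sprr1a*- and 0.885 to 1.04 in *Sprr1a*+ neurons. At least 7 factors were found in 4.42%, 6.496%, 10.9%, and 12.3% of *Sprr1a*- and in 45.2%, 43.2%, 56.8%, and 57.5% of *Sprr1a*+ neurons. *Atf3*, *Jun*, and *Sox11* were found together in 85.7%, 93.5%, 98.2%, and 97.7% of *Sprr1a*+ neurons, against 13.8%, 17.3%, 26.8%, and 29.7% of *Sprr1a*- neurons.

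The number also differed between classes of *Sprr1a*- neurons. Apart from the few *Sprr1a*- neurons of the CCI-ind-like clusters, which held 5.75 in Female-Sham (12 neurons), 6.775 in Male-CCI (40), and 6.49 in Female-CCI (68), PEP3/4-like neurons held the most, 5.19, 5.33, 5.49, and 5.65, and NP3-like neurons few, 2.58, 2.57, 2.92, and 3.44. *Sprr1a*+ neurons of different classes were closer to each other, with 6.59 and 6.47 for NP1-like, 5.98 and 6.07 for NF1-like, and 6.28 and 6.51 for NF2-like neurons of Male-CCI and Female-CCI.

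**Figure D4:**
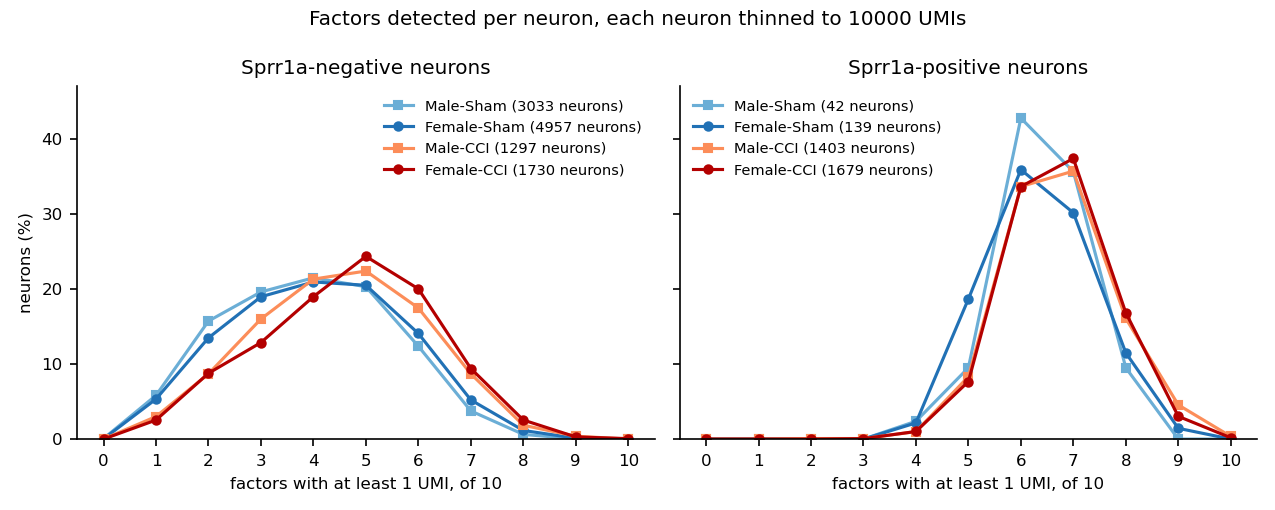
Share of neurons (percent) by the number of the 10 factors with at least 1 UMI, each neuron thinned to 10000 UMIs, in *Sprr1a*- and *Sprr1a*+ neurons of each library. The *Sprr1a*+ curves of all 4 libraries lie to the right, with means of 6.35 to 6.72 against 3.90 to 4.67 in *Sprr1a*- neurons.

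Rank correlations across neurons describe how the factors go together, and they carry no p because the neurons of a library share their library and their depth and include all classes. Over all neurons at 10000 UMIs (3075, 5096, 2700, and 3409 neurons), Spearman's rho of *Atf3* with *Sox11* was 0.17, 0.26, 0.75, and 0.73. Within *Sprr1a*- neurons it was 0.13, 0.19, 0.28, and 0.29, and within *Sprr1a*+ neurons of CCI 0.19 and 0.13. Over all CCI neurons, *Sprr1a*+ and *Sprr1a*- together, rho was thus higher than within either kind, and the reason was not tested. Without thinning it was 0.82 and 0.81 over all neurons of Male-CCI and Female-CCI. Within their *Sprr1a*- neurons it was then 0.36 and 0.41, and within their *Sprr1a*+ neurons 0.45 and 0.445, so the low values within *Sprr1a*+ neurons depended on the thinning.

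*Atf3* with *Jun* behaved otherwise, at 0.54, 0.56, 0.44, and 0.40 over all neurons and 0.54, 0.56, 0.57, and 0.50 within *Sprr1a*- neurons, but 0.17 and 0.09 within *Sprr1a*+ neurons of CCI. Without thinning the values within *Sprr1a*+ neurons of Male-CCI and Female-CCI were 0.55 and 0.49. *Jun* was found in *Sprr1a*- neurons with an *Atf3* UMI in 88.8%, 90.6%, 92.8%, and 90.3%, against 51.8%, 54.5%, 65.7%, and 67.1% of those without. *Sox11* was found in 36.9%, 41.0%, 57.1%, and 58.6% of *Sprr1a*- neurons with *Atf3* and in 26.9%, 26.1%, 40.7%, and 41.7% of those without. *Jun* and *Klf6* stood at 0.56, 0.55, 0.41, and 0.43 over all neurons.

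**Figure D5:**
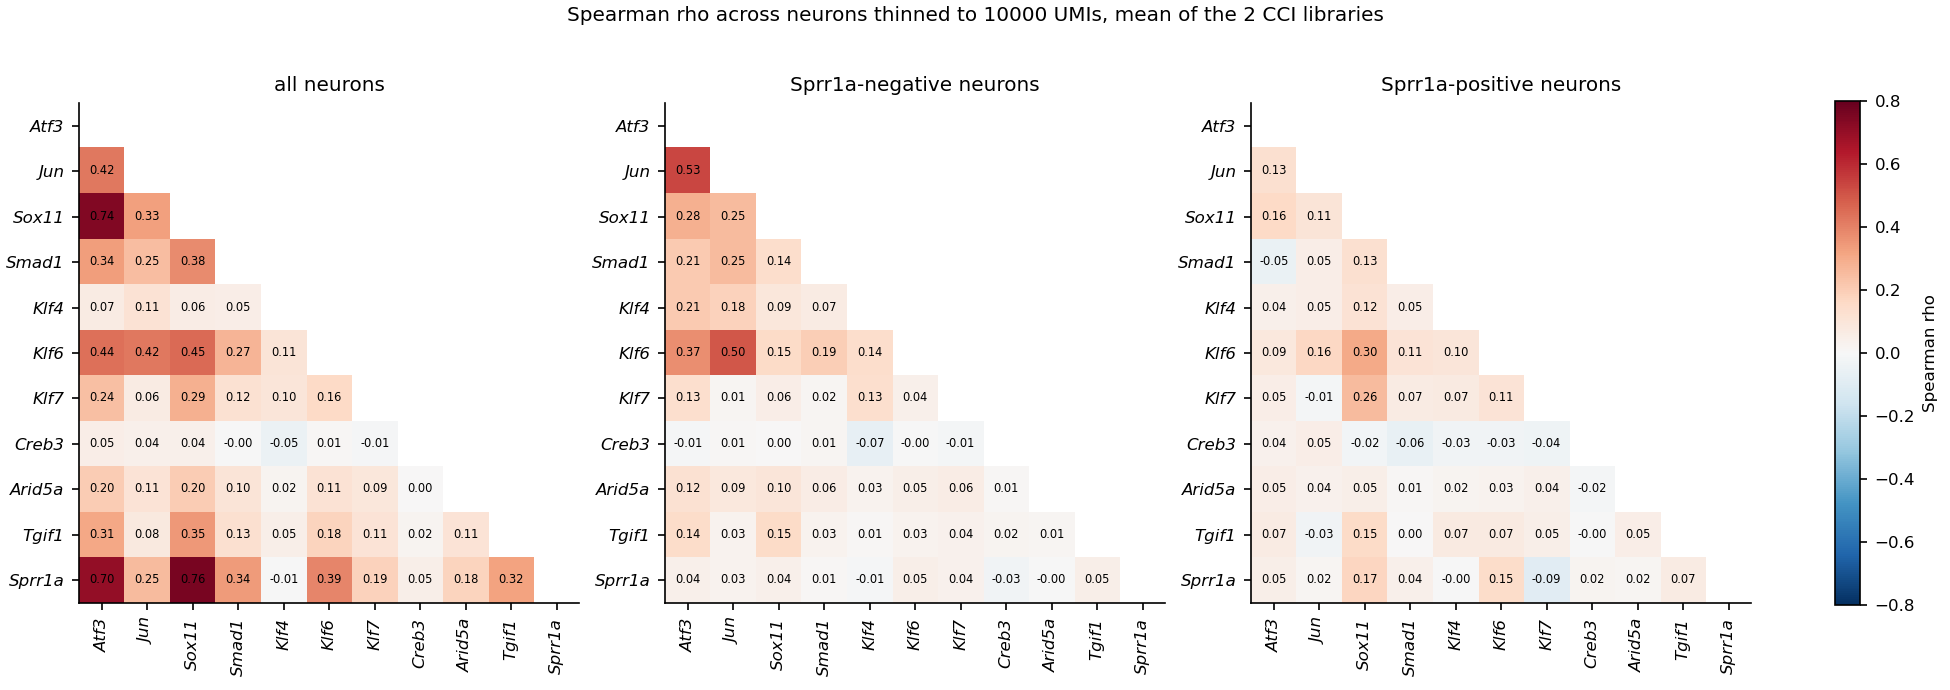
Spearman's rho across neurons thinned to 10000 UMIs for each pair of the 10 factors and *Sprr1a*, as the mean of the 2 CCI libraries, over all neurons and within *Sprr1a*- and *Sprr1a*+ neurons. *Atf3* with *Sox11* reaches 0.74 over all neurons and 0.28 and 0.16 within *Sprr1a*- and *Sprr1a*+ neurons.

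The genes most like each factor were sought by Pearson's r of log2(CPM + 1) over 53 sums per class and library, among 10534 genes with a mean of at least 5 CPM. The sums of a library share it, and r is a description. *Atf3* was most like *Gadd45g* (0.88), *Il17ra* (0.85), and *Odc1* (0.84), *Jun* most like *Gsn* (0.91), and *Sox11* most like *Srrm4* and *Cct8* (0.90 each). *Klf7* was closest to *Serpinb6a* (0.93) and *Tgif1* to *Pxdc1* (0.96). The values for the other factors were 0.89 for *Smad1* with *Dhx32*, 0.87 for *Klf4* with *Fam46a*, 0.88 for *Klf6* with *Stk3*, 0.82 for *Creb3* with *Eif6*, and 0.77 for *Arid5a* with *Abca1*. Among the factors themselves, *Sox11* went with *Smad1* (0.86) and *Jun* with *Klf6* (0.85), whereas *Jun* and *Sox11* stood at 0.03 and *Jun* and *Klf7* at -0.43.

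Relatives and partners of the factors were counted in the same comparisons, to be read beside the shares of all genes, 15.2% called higher and 12.7% lower over all neurons, 20.9% and 24.7% within CCI, and 3.23% and 1.24% in *Sprr1a*- neurons. In the neurons as a whole, 9 of 19 other AP-1, ATF, and C/EBP genes were called higher and 2 lower, with a median change of 0.40. *Batf3* (0.166, 0.132, 2.11, and 2.11 CPM, 3.88) and *Fosl1* (0.197, 0.296, 3.31, and 3.06 CPM, 3.73), which pair with *Jun* proteins, and *Fosl2* (7.14, 9.33, 23.6, and 25.7 CPM, 1.64) rose most. Within CCI, 10 were called higher and 2 lower in *Sprr1a*+ neurons, with *Ddit3*, a stress-induced C/EBP homologue, at 46.3 and 48.4 CPM in *Sprr1a*- and 152 and 181 CPM in *Sprr1a*+ neurons (1.98). Among the 19, 2 were called higher in *Sprr1a*- neurons, *Fosl1* (2.54) and *Batf3* (1.78).

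Of 11 other Kruppel-like genes, 3 were called higher over all neurons, against 15.2% of all genes (median 0.18), *Klf12* (1.27), *Klf10* (10.5, 12.4, 18.4, and 16.0 CPM, 0.64), and *Klf13* (140, 129, 191, and 180 CPM, 0.52). In *Sprr1a*- neurons edgeR called none of the 11, with an unadjusted p under 0.05 for 3 in the higher and 1 in the lower direction, and DESeq2 called none either. Among 8 SoxC and other Sox genes, 2 were called higher, *Sox9* (0.407, 0.749, 17.2, and 18.6 CPM, 4.99) and *Sox5* (1.27, 1.47, 6.31, and 6.20 CPM, 2.24). *Sox4*, the close relative of *Sox11*, moved against it within CCI, from 112 and 113 CPM in *Sprr1a*- to 55.3 and 59.97 CPM in *Sprr1a*+ neurons (-0.79), and lay still lower, at 21.02 and 26.6 CPM, in *Sprr1a*+ neurons of sham (1.2 for CCI against sham).

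Of 10 other SMAD and TGIF genes, 2 were called higher and 2 lower over all neurons, near the 15.2% and 12.7% of all genes (median -0.15). *Smad9*, which acts beside *Smad1*, lay at 17.5, 15.6, 11.1, and 10.4 CPM (-0.57), and the inhibitor *Smad6* fell by 0.65 on the log2 scale, whereas *Skil*, a repressor of SMAD proteins, rose by 0.69. Within CCI the inhibitor *Smad7* lay at 13.7 and 13.9 CPM in *Sprr1a*- and at 1.90 and 3.03 CPM in *Sprr1a*+ neurons (-2.33) and *Smad6* changed by -4.55. Of 8 CREB family genes, 3 were called higher and 1 lower, with *Crem* at 19.2, 22.6, 33.5, and 37.3 CPM (0.81) and *Creb3l1*, a relative of *Creb3*, at 11.9, 11.1, 5.58, and 5.46 CPM (-1.01).

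Of 12 further transcription factors linked to nerve injury, 4 were called higher over all neurons, 7 within CCI, and 1 in *Sprr1a*- neurons. *Cited2*, a CBP/p300 cofactor, led them at 19.0, 21.1, 116, and 105 CPM (2.52) and was the one called in *Sprr1a*- neurons (17.1, 17.4, 27.3, and 28.8 CPM, 0.68). *Nfil3* (10.3, 11.3, 29.6, and 31.4 CPM, 1.55) and *Rest* (2.27, 2.28, 5.91, and 5.79 CPM, 1.42), which are repressors, rose as well. The 13 immediate early genes gave 2 higher and 3 lower (median -0.30) over all neurons, with calls in both directions, *Egr3* up by 2.19 and *Fosb* changed by -0.63.

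Among 16 tested factors of sensory neuron identity, 6 were called lower over all neurons, against 12.7% of all genes (median -0.50), and within CCI 13 were called lower in *Sprr1a*+ neurons, against 24.7% (median -1.03). *Isl2* lay at 270, 242, 112, and 118 CPM (-1.10). Of 24 tested regeneration effectors, growth and injury genes downstream of such factors, 21 were called higher over all neurons (median 2.66), and 16 were called higher in *Sprr1a*- neurons (median 0.75), among them *Npy* (5.43) and *Ecel1* (2.96). These effectors were listed because injured neurons are known to express them. Of 16 upstream signalling genes, 1 was called lower over all neurons, *Hdac5*, at 31.3, 31.7, 19.5, and 21.02 CPM (-0.58), and in *Sprr1a*+ neurons within CCI 5 were called lower, near the 24.7% of all genes, with *Mapk10*, the neuronal JNK, at 122 and 119 CPM against 49.2 and 47.6 CPM (-1.14).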

How the data were processed

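The 4 libraries hold GFP+ DRG cells sorted from sham and CCI mice. The authors made the deposited UMI counts with Cell Ranger on mm10 (2.1.1 in the submitters' notes, 3.0.2 in the matrix header), and the counts are neither normalized nor filtered beyond the calling of cells. Here, doublets were scored with Scrublet in scanpy 1.11.5, and as many top-scoring cells were removed as the study lists, since the automatic threshold marked almost none. Cells with under 1500 genes or over 10% mitochondrial UMIs were removed, and Seurat 5.3.0 integrated the libraries on 3000 variable genes and clustered 20 components at resolution 0.8.

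UMIs were summed per library and class and compared with edgeR 4.0.16 (robust quasi-likelihood, TMM, filterByExpr), blocking on library within CCI. Library totals were 195684124 to 237069156 UMIs, of which 159902783 to 189489772 were in neurons, where 3 UMIs are 0.0158 to 0.0188 CPM. On simulated sums with 200 genes changed 2-fold, edgeR recovered 88% for CCI against sham over all neurons, 86% for *Sprr1a*- neurons, and 65% for *Sprr1a*+ neurons. The simulation gave every gene the same fixed dispersion and no difference between the sexes, so these rates are not the power of the real comparisons. The factors and gene lists were chosen with earlier results of these data known. All 10 factors are named in every comparison, as are up to 3 called genes of each list with the largest change. Tried as alternatives were DESeq2 1.42.0, the block on sex, no filter on low counts, doublets kept, other limits and resolutions, a clustering without injury genes and factors, and leaving out each library. Promoters came from RefSeq (GRCm38.p6), where all 10 factors had an entry. Protein sequences were not used here. R 4.3.3 (limma 3.58.1, SeuratObject 5.2.0) and Python 3.11.15 (numpy 2.4.6, pandas 2.3.3, scipy 1.17.1, matplotlib 3.10.9) were used.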

Additional observations from a re-analysis of the deposited data

Results flagged for a closer look

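The change from *Sprr1a*- sham neurons to *Sprr1a*+ CCI neurons differed between the NP1-, NF1-, and NF2-like classes for 7 factors by edgeR's interaction test, with the p adjusted over all genes. The adjusted p was 0.0487 for *Atf3*, 1.04e-07 for *Jun*, 0.000273 for *Smad1*, 7.66e-05 for *Klf7*, 0.0039 for *Creb3*, 0.00267 for *Arid5a*, and 0.0104 for *Tgif1*. In *Sprr1a*- neurons the change between CCI and sham differed among 10 classes for *Arid5a* (adjusted p = 0.0147) and *Tgif1* (adjusted p = 0.0403). The *Tgif1* result rests on low counts, as only NF2-like neurons had enough of it to be tested by themselves, with 0 UMIs in sham. The sums of a library in several classes share that library. With library as a block *Atf3* gave an adjusted p of 0.0879 for *Sprr1a*+ neurons.

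In *Sprr1a*+ neurons *Atf3* was lower in Male-CCI than in Male-Sham and higher in Female-CCI than in Female-Sham, where the log2 ratio was 0.0635. The difference between the sexes was not tested, with 1 library of each sex and surgery.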

How the results depend on the processing

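Over all neurons, 518 of the values of single factors under the alternatives kept their direction and side of the threshold, 26 gained a call, 5 lost it, and 1 reversed. By class the numbers were 1659, 62, 24, and 2. The reversed values were *Atf3* in *Sprr1a*+ neurons of CCI against sham with any *Sprr1a* UMI (0.62), in *Sprr1a*- NP2-like neurons with doublets kept (1.04), and in *Sprr1a*- NP3-like neurons without Male-CCI (0.52, against -0.74 without Female-CCI), and the cause was not tested. DESeq2 gave no adjusted p for 19 factors in a class, 5 of them called by edgeR, and these were left out of the counts.

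For CCI against sham over all neurons, 7 factors and 4796 genes were called, 7 to 8 factors and 4194 to 4512 genes with a library left out, and 1615 genes without CCI-ind-like neurons. Within CCI the 7400 genes called became 4760 with any *Sprr1a* UMI. For *Sprr1a*- neurons, leaving out a library gave 3 to 5 factors and 325 to 704 genes, against 3 and 734. For *Sprr1a*+ neurons of CCI against sham it gave 2 to 3 factors and 787 to 1353 genes, against 2 and 1395, with 5 factors when doublets were kept and 8 with any *Sprr1a* UMI. By class the 25 calls in *Sprr1a*+ neurons were 24 to 27 with a library left out and 16 at 5% mitochondrial UMIs, where 2 classes could be tested, and the 22 calls in *Sprr1a*- neurons were 20 to 29.

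With library as a block, the difference between classes in *Sprr1a*- neurons passed for 5 factors (*Atf3*, *Sox11*, and *Smad1* in addition) in place of 2 and for 1805 genes in place of 609. The median rise in the share of neurons with a UMI, 14.8 percentage points, was 10.5 without thinning and 9.36 at 2000 UMIs, and the difference in factors per neuron fell from 2.13 to 1.65 without thinning. Without thinning, in *Sprr1a*+ neurons alone, and in *Sprr1a*- neurons alone, rho was 0.82, 0.16, and 0.28 for *Atf3* with *Sox11* (0.74 as reported), 0.65, 0.13, and 0.53 for *Atf3* with *Jun* (0.42), and 0.68, 0.16, and 0.50 for *Jun* with *Klf6* (0.42).

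Replicate numbers pair the libraries by sex only. The deviations of the male libraries correlated at 0.414. With sex as a replicate block 7 factors and 4939 genes were called over all neurons, 3 and 1076 in *Sprr1a*- neurons, and 3 and 1446 in *Sprr1a*+ neurons, by class 25 and 27 calls, and without the block within CCI 7 and 7305. The block added calls in *Sprr1a*- neurons for *Atf3* in NP1-like (1.79) and *Sox11* in NF2-like neurons (3.32).

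Depth limits *Tgif1* and *Klf4* in single classes, and 42 *Sprr1a*+ neurons of Male-Sham limit every comparison with them.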

Other observations

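SGC-like cells, the glia that wrap DRG neurons, entered no comparison of the factors. *Jun* lay at 1949, 2282, 1893, and 2523 CPM in them and *Klf6* at 238, 374, 277, and 412 CPM. *Klf6* was higher in the CCI than in the sham library of each sex, and *Jun* in females only. *Atf3* was higher in the 2 female libraries (321 and 385 CPM) than in the male ones (64.5 and 81.7 CPM), and so was the summed level of the 13 immediate early genes (9136 and 7009 CPM against 5972 and 4931 CPM). *Sox11* was at 0 in both sham libraries and at 12.9 and 18.0 CPM in CCI, where *Sprr1a* lay at 57.4 and 98.8 CPM. The source of these neuronal mRNAs in SGC-like cells was not tested. *Klf4* lay at 51.0, 75.6, 64.5, and 120 CPM in SGC-like cells and at 10.1 to 15.1 CPM in neurons.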
